A study of Mus musculus with 72 samples.

Results

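Arc, Egr1 and Nr4a2 are immediate early genes, and all 3 are measured among the 1266 genes of a NanoString nCounter study of mouse cortex. They were taken by symbol from the deposited table of log2 values, and each symbol matched 1 row (RefSeq gene IDs 11838, 13653 and 18227). The choice of these 3 genes, and of the gene lists used below, was made with earlier results of these data known. The study asked what 2 coding variants of Plcg2, a phospholipase gene of microglia and other immune cells, do in mice that form amyloid plaques. nCounter counts fluorescent barcodes hybridised to a fixed set of transcripts, without amplification.

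Cortical RNA came from 36 mice aged 7.5 months in 6 groups of 6. The groups were M28L_5xFAD females and males, P522R_5xFAD females and males, and 5xFAD females and males. M28L and P522R name the amino acid changes in the Plcg2 protein, and the labels write WT in that place for the 5xFAD group. Every mouse carried the 5xFAD transgenes, which express human amyloid precursor protein and presenilin 1 with familial Alzheimer's disease mutations under a neuronal Thy1 promoter. Mice without these transgenes were not analysed here, and the labels do not say whether a mouse had 1 or both Plcg2 copies changed.

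Immediate early genes are switched on within minutes of a stimulus, by transcription factors that are already present in the cell and need no new protein. In cortical neurons, calcium that enters through NMDA receptors and voltage-gated channels activates CREB, SRF and MEF2 factors, which act at these genes. Their RNA is short-lived, so in tissue it reflects the time shortly before the animal was killed. Arc encodes a cytoskeleton-associated protein that promotes removal of AMPA receptors from synapses. Egr1, also called Zif268, encodes a zinc finger transcription factor. Nr4a2, also called Nurr1, encodes an orphan nuclear receptor that responds to activity in cortex and is required for midbrain dopamine neurons to form.

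Among the members a promoter sequence was at hand for Nr4a2 only, and any part of it in the levels measured here was not tested. It covers the 250 bases before the annotated start, at chr2:57124004-57124253 on the minus strand of GRCm38.p6, from RefSeq, written 5′ to 3′ along the gene.
Nr4a2: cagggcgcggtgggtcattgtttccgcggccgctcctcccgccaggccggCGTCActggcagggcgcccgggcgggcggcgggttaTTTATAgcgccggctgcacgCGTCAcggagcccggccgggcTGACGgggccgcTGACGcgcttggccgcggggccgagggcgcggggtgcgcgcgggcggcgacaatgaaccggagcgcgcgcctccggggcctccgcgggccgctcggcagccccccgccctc
Capitals mark matches to CGTCA, the short form of the cAMP response element that CREB binds, on either strand, and to TATAAA, here read on the reverse strand. CGTCA occurred 4 times, at positions -200 to -196, -144 to -140, -123 to -119 and -111 to -107 from the start. TATAAA occurred 1 time, at -164 to -159. Of 32851 RefSeq windows of 300 bases, 250 before and 50 after a start, 20.81% held CGTCA at least 1 time and 13.62% held TATAAA. The share with 4 matches to CGTCA was not counted. The Nr4a2 window held no match to the full element TGACGTCA (1.79% of windows), which contains CGTCA. It also held none to the CArG box (1.63%), to the EGR motifs GCGTGGGCG (0.61%) and GCGGGGGCG (2.91%), or to the NR4A site AAAGGTCA (1.51%). The motifs overlapped nowhere in it. A match is a run of letters and not a measured binding site.

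The measurements set some limits on all that follows. On the linear scale nearly all deposited values were whole multiples of a step particular to the mouse and panel, to within 0.05 counts, which gave back the counts. Egr1 belongs to a panel of 757 genes by this step, and Arc and Nr4a2 to one of 509 genes. Recovered totals, over genes with a symbol only, ran between 921565 and 1957325 counts per mouse on the first and between 237563 and 774198 on the second. On the 509-gene panel they averaged 277940 ± 30309 counts in M28L_5xFAD females, 598138 ± 125012 in P522R_5xFAD females and 312401 ± 23799 in 5xFAD females (SD, n = 6 each). The males averaged 623748 ± 18164, 533645 ± 143146 and 587083 ± 81739 counts in M28L_5xFAD, P522R_5xFAD and 5xFAD mice (SD, n = 6 each). P522R_5xFAD male 30 had 259284 counts there, against 521064 to 672936 in the rest of its group. P522R_5xFAD female 8 had 404333, against 553880 to 774198 in the rest of its group. On the 757-gene panel female 8 was again the lowest of its group (1295271), and male 30 was not (1759681). Principal components 1 and 2 held 42.3% and 28.7% of the variance of 1091 genes with a mean log2 value of at least 5. The labels name no run, so a difference between the sexes, or between any 2 genotypes, cannot be told apart from one between runs. Excitatory neuron markers were measured in every group, which does not by itself mark cortex. Of their list 12 of 20 genes were measured, and the dimmest, the vesicular glutamate transporter gene Slc17a6, averaged a log2 value of 6.70 in its lowest group. Slc17a6 is also in the list for hippocampus, thalamus and cerebellum. The dimmest gene of the striatal list, Drd2, averaged 7.17 in its lowest group. In bulk tissue, fewer cells of a type and less RNA per cell cannot be told apart.

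Arc varied most among the 3. Over 36 mice its log2 value ran between 7.82 in a 5xFAD female and 10.75 in an M28L_5xFAD male, a span of 7.61-fold, on 172 to 1679 counts per mouse. Egr1 spanned 10.96 to 13.21, or 4.73-fold, on 1705 to 9337 counts, and Nr4a2 8.71 to 10.18, or 2.77-fold, on 286 to 1212 counts. Within groups the pooled SD was 0.469 for Arc, 0.280 for Egr1 and 0.152 for Nr4a2 on the log2 scale, against a median of 0.156 over 1091 genes. Arc ranked 6 of 1091 by this spread, Egr1 105 and Nr4a2 563. The Arc spread between mice of one group was thus among the widest measured, and that of Nr4a2 was near the middle.

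**Figure D1:**
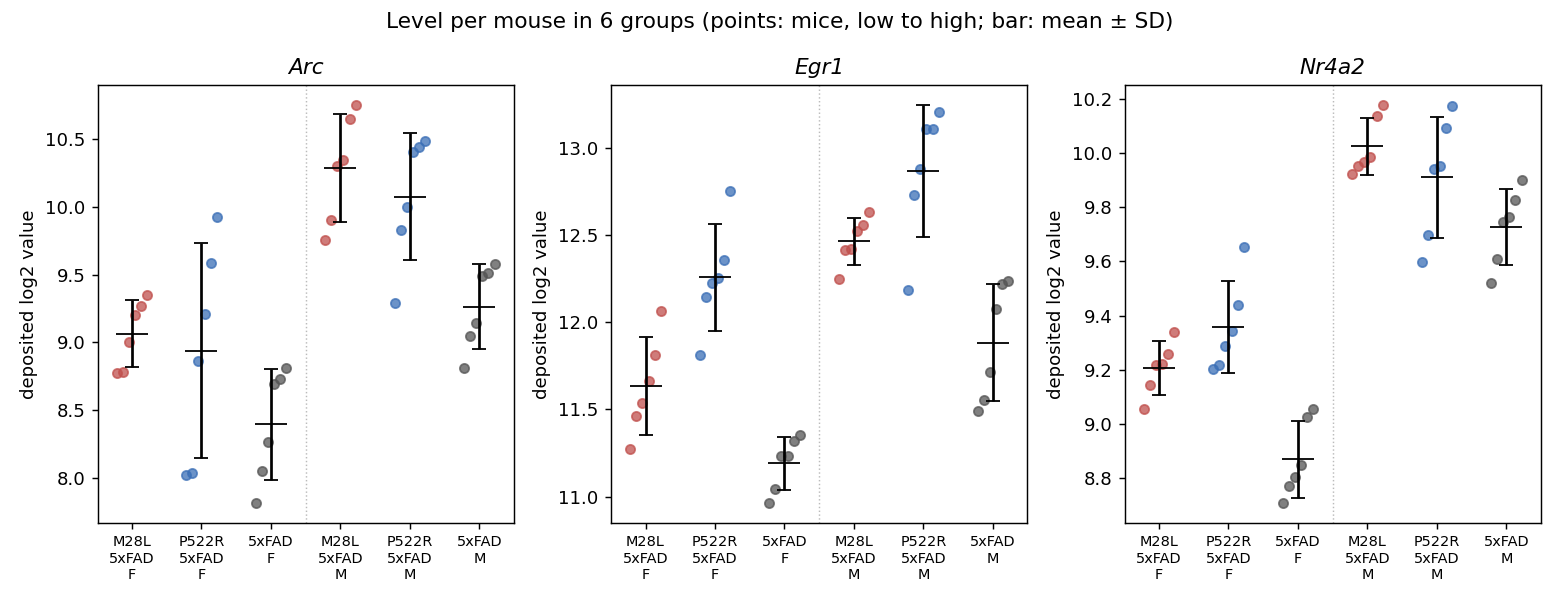
Deposited log2 value of Arc, Egr1 and Nr4a2 in each mouse, by genotype and sex; points are mice sorted low to high within a group and the bar is the mean ± SD (n = 6). Male groups sit above the female group of their genotype, and 5xFAD is the lowest of the 3 genotypes in each sex.

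Among females, the Arc log2 value was 8.78, 9.10 and 9.35 (lowest, median and highest) in M28L_5xFAD, 8.02, 9.04 and 9.92 in P522R_5xFAD, and 7.82, 8.48 and 8.82 in 5xFAD mice. In males it was 9.75, 10.32 and 10.75 in M28L_5xFAD, 9.29, 10.20 and 10.48 in P522R_5xFAD, and 8.81, 9.32 and 9.58 in 5xFAD mice. All 6 M28L_5xFAD males lay above all 5xFAD males, and 4 of 6 M28L_5xFAD females above all 5xFAD females. How many of all genes separate as the males do here was not counted. The P522R_5xFAD females were spread widest, with an SD of 0.79: females 60 and 8 lay at 8.02 and 8.04, within the 5xFAD range, and the other 4 above it. Female 8 had the fewest counts of its group on both panels. By group mean the order was M28L_5xFAD males at 10.28, P522R_5xFAD males at 10.07, 5xFAD males at 9.26, M28L_5xFAD females at 9.06, P522R_5xFAD females at 8.94 and 5xFAD females at 8.40. Of these neighbours only P522R_5xFAD and 5xFAD males differed by more than their pooled SD, and all neighbouring ranges overlapped.

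Egr1 in females was at 11.27, 11.60 and 12.06 in M28L_5xFAD, 11.81, 12.24 and 12.76 in P522R_5xFAD, and 10.96, 11.23 and 11.35 in 5xFAD mice. Male values were 12.25, 12.47 and 12.63 in M28L_5xFAD, 12.18, 12.99 and 13.21 in P522R_5xFAD, and 11.49, 11.89 and 12.24 in 5xFAD mice. P522R_5xFAD and 5xFAD females did not overlap, nor did M28L_5xFAD and 5xFAD males. The share of all genes with such a gap was not counted. By limma 39.3% of all genes were called higher in the former pair and 0.869% in the latter. Means ran in the order P522R_5xFAD males 12.87, M28L_5xFAD males 12.47, P522R_5xFAD females 12.26, 5xFAD males 11.88, M28L_5xFAD females 11.63 and 5xFAD females 11.19. The P522R_5xFAD females thus stood above the 5xFAD males for this gene, by more than the pooled SD of the pair. M28L_5xFAD males and P522R_5xFAD females, and 5xFAD males and M28L_5xFAD females, were neighbours that differed by less than their pooled SD.

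For Nr4a2, females had log2 values of 9.05, 9.22 and 9.34 in M28L_5xFAD, 9.20, 9.31 and 9.65 in P522R_5xFAD, and 8.71, 8.83 and 9.06 in 5xFAD mice. Males had 9.92, 9.98 and 10.18 in M28L_5xFAD, 9.60, 9.95 and 10.18 in P522R_5xFAD, and 9.52, 9.76 and 9.90 in 5xFAD mice. P522R_5xFAD and 5xFAD females again did not overlap, and neither did M28L_5xFAD and 5xFAD males, with the share of all genes that do so not counted. The order of means was M28L_5xFAD males 10.02, P522R_5xFAD males 9.91, 5xFAD males 9.73, P522R_5xFAD females 9.36, M28L_5xFAD females 9.21 and 5xFAD females 8.87. By mean all 3 male groups lay above all 3 female groups, although 5xFAD males and P522R_5xFAD females overlapped. Neighbouring male groups differed from each other by less than their pooled SD.

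All 3 genes rose in M28L_5xFAD mice relative to 5xFAD mice. Arc, the synaptic effector, averaged 9.67 in M28L_5xFAD and 8.83 in 5xFAD mice on the log2 scale (n = 12 each), which is 1.79-fold higher. The difference was 0.84 ± 0.17 (SE), with an adjusted p of 9.22e-04 by limma and Benjamini-Hochberg adjustment over 1266 genes. It was the largest rise of all genes, ranked by size among those with a positive difference. Egr1 averaged 12.05 in M28L_5xFAD and 11.54 in 5xFAD mice, 1.43-fold higher, with a difference of 0.51 ± 0.11 (SE, adjusted p = 8.60e-04 by limma). Nr4a2 averaged 9.62 in M28L_5xFAD and 9.30 in 5xFAD mice, 1.25-fold higher, with a difference of 0.32 ± 0.06 (SE, adjusted p = 4.50e-04 by limma). For each gene all 12 M28L_5xFAD mice exceeded the average 5xFAD mouse of like sex. Over all genes 59 were called higher, which is 4.66% of those tested, and 71 lower, and the median difference was 0.00. The size of the Arc rise was 0.74 to 1.01 over 15 alternatives, of which 1, a fit that ignores sex, ended the calls of all 3 genes (adjusted p = 0.1, 0.132 and 0.515).

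Within females, M28L_5xFAD minus 5xFAD was 0.67 for Arc (adjusted p = 0.122), 0.44 for Egr1 (adjusted p = 0.0828) and 0.34 for Nr4a2 (adjusted p = 0.0199), by limma. Of all genes 1.9% were called higher in females. Within males it was 1.02 for Arc (adjusted p = 0.0158), 0.58 for Egr1 (adjusted p = 0.0246) and 0.30 for Nr4a2 (adjusted p = 0.0578), where 0.869% of genes were called higher. In each of these, 6 of 6 M28L_5xFAD mice lay above the 5xFAD mean. Most of these calls depended on the processing. Under other settings the Nr4a2 call in females ended with panel medians (0.23, adjusted p = 0.124), while those of Arc and Egr1 in females passed in a fit of the 2 genotypes alone (adjusted p = 0.0251 and 0.0313) and with Gusb and Tbp (0.89 and 0.67), and Egr1 also with panel medians (0.51). Nr4a2 in males passed with mouse medians (0.31), quantile normalization (0.31) and the 2 genotypes alone (adjusted p = 0.0133). Calls also changed when 1 mouse was left out. The Nr4a2 call in females ended without 5xFAD female 1190 (0.31, adjusted p = 0.057), and that of Arc in males ended without M28L_5xFAD male 9 or 10 or 5xFAD male 1270 (0.93 to 0.95). The Egr1 call in males ended without any 1 of M28L_5xFAD males 9 and 10 and 5xFAD males 1177, 1181 and 1270 (0.51 to 0.57). Egr1 in females passed without M28L_5xFAD female 20 (0.52) or P522R_5xFAD male 21 (0.44), and Nr4a2 in males passed without P522R_5xFAD female 49, P522R_5xFAD males 21 or 30 or 5xFAD male 1269 (0.30 to 0.33). The female minus male difference of the M28L effect was -0.35 for Arc (95% CI -1.06 to 0.35), -0.14 for Egr1 (-0.57 to 0.29) and 0.04 for Nr4a2 (-0.21 to 0.29), with an adjusted p of 1 by limma for each. No gene of 1266 was called in that contrast (0%), and 34 had an unadjusted p under 0.05.

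The 3 genes also rose in P522R_5xFAD mice relative to 5xFAD mice, against a background where 40.5% of genes were called higher and 65.4% were called in either direction. Egr1 changed most, with a mean of 12.56 in P522R_5xFAD and 11.54 in 5xFAD mice, 2.04-fold higher. Its difference was 1.03 ± 0.11 (SE, adjusted p = 2.37e-10 by limma) and 12 of 12 mice shared its direction. Arc averaged 9.51 in P522R_5xFAD and 8.83 in 5xFAD mice, 1.60-fold higher, with a difference of 0.68 ± 0.17 (SE, adjusted p = 9.94e-04) in 10 of 12 mice. Nr4a2 averaged 9.63 in P522R_5xFAD and 9.30 in 5xFAD mice, 1.26-fold higher, with a difference of 0.34 ± 0.06 (SE, adjusted p = 1.10e-05), also in 10 of 12 mice. By size among positive differences Egr1 ranked 31, Arc 88 and Nr4a2 300. Being called higher is thus common in this comparison, and the comparison shares its 5xFAD mice with that of M28L_5xFAD.

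Within females the P522R_5xFAD minus 5xFAD difference was 0.54 for Arc (adjusted p = 0.0555), 1.07 for Egr1 (adjusted p = 3.31e-07) and 0.49 for Nr4a2 (adjusted p = 1.39e-05), where limma called 39.3% of genes higher. Within males it was 0.81 for Arc (adjusted p = 0.00636), 0.99 for Egr1 (adjusted p = 1.11e-06) and 0.18 for Nr4a2 (adjusted p = 0.0742), where 26.8% were called higher. Arc in females passed without any 1 of 6 mice, P522R_5xFAD females 60 and 8, P522R_5xFAD male 21 and 5xFAD females 1180, 1249 and 1253 (0.54 to 0.73). Nr4a2 in males passed without P522R_5xFAD males 21 or 23 or 5xFAD male 1269 (0.22 to 0.25), and with mouse medians (0.21), panel medians (0.36) and quantile normalization (0.26). Arc in females also passed with panel medians (0.63) and with Gusb and Tbp (0.54). The female minus male difference of the P522R effect was -0.27 for Arc (adjusted p = 0.62), 0.08 for Egr1 (adjusted p = 0.817) and 0.31 for Nr4a2 (adjusted p = 0.0714), where 20.9% of genes were called. The Nr4a2 value passed without any 1 of P522R_5xFAD female 24, P522R_5xFAD males 30 and 31, 5xFAD female 1253 and 5xFAD male 1177 (0.34 to 0.36), and that of Egr1 was -0.019 without P522R_5xFAD female 49 and -0.056 without male 21.

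Set against each other, the variant groups differed in Egr1. It averaged 12.56 in P522R_5xFAD and 12.05 in M28L_5xFAD mice, a difference of 0.51 ± 0.11 (SE, adjusted p = 6.00e-05 by limma) in 11 of 12 mice, where 41.5% of genes were called higher. Arc averaged 9.51 in P522R_5xFAD and 9.67 in M28L_5xFAD mice, a difference of -0.17 (95% CI -0.52 to 0.19, adjusted p = 0.402). Nr4a2 averaged 9.63 in P522R_5xFAD and 9.62 in M28L_5xFAD mice, a difference of 0.02 (95% CI -0.11 to 0.14, adjusted p = 0.8). Both intervals hold 0, and neither direction was stable: centring each panel of each mouse on its median gave 0.066 for Arc and 0.25 for Nr4a2, and called Nr4a2 (adjusted p = 4.00e-04). Centring on Gusb and Tbp gave -0.37 for Arc, called (adjusted p = 0.0254), and -0.18 for Nr4a2 (adjusted p = 0.066). Gusb and Tbp were themselves called higher between the variants as deposited (0.24 and 0.17). Centring on them moved the median of all genes from 0.10 to -0.10, so the Arc call rests in part on that shift. Without P522R_5xFAD female 49 or P522R_5xFAD males 30 or 31, Nr4a2 was at -0.0116 to -0.0003. Male 30 had the fewest counts of its group on the panel of Nr4a2.

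Within females, P522R_5xFAD minus M28L_5xFAD was -0.12 for Arc (adjusted p = 0.671), 0.62 for Egr1 (adjusted p = 5.07e-04) and 0.15 for Nr4a2 (adjusted p = 0.127), where limma called 38.2% of genes higher. In males the differences were -0.21 (adjusted p = 0.506), 0.40 (adjusted p = 0.0231) and -0.11 (adjusted p = 0.274), where 26.5% were called higher. The Egr1 call in males ended without M28L_5xFAD male 17 or P522R_5xFAD males 27, 30 or 31 (0.34 to 0.36), and also with panel medians (0.32), quantile normalization (0.34) and Gusb and Tbp (0.23). Nr4a2 in females was called with panel medians (0.35, adjusted p = 6.51e-04). Arc in females changed sign without P522R_5xFAD female 60 or 8 (0.061 and 0.057). The female minus male difference was 0.09 for Arc (adjusted p = 0.89), 0.22 for Egr1 (adjusted p = 0.473) and 0.27 for Nr4a2 (adjusted p = 0.106), where 23.5% of genes were called. Nr4a2 passed there without P522R_5xFAD male 30 (0.32, adjusted p = 0.0485), and Arc lay at -0.11 to -0.0067 without M28L_5xFAD male 9, P522R_5xFAD females 49 or 54 or P522R_5xFAD male 21.

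**Figure D2:**
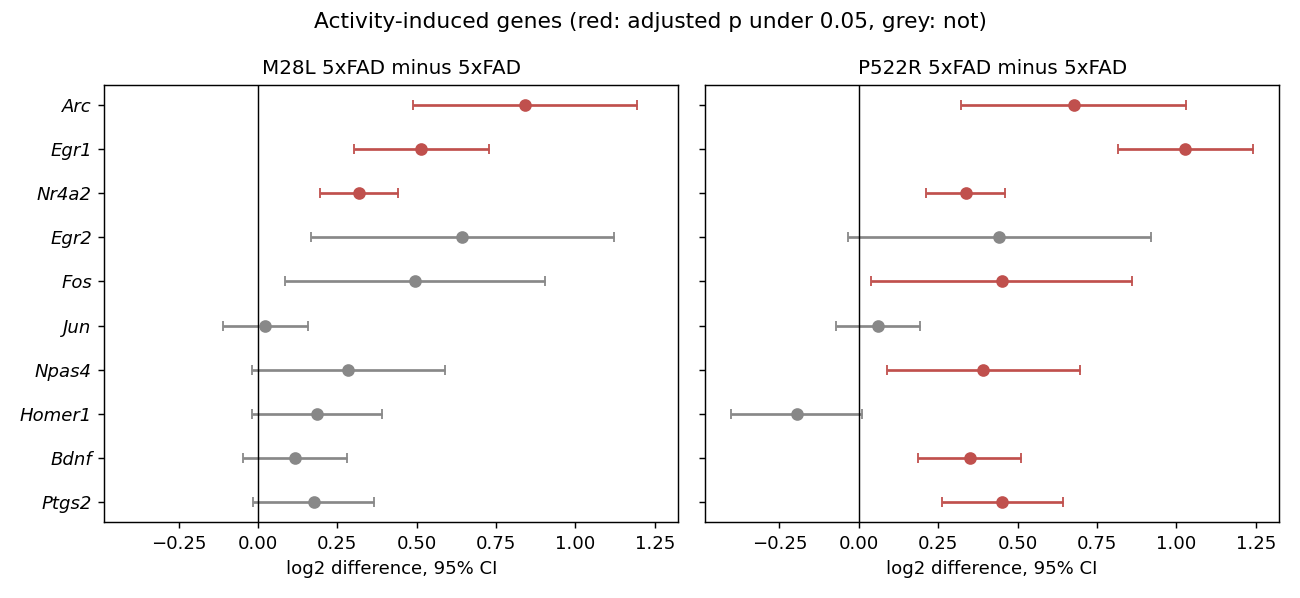
Log2 differences with 95% confidence intervals for the 10 measured activity-induced genes, M28L_5xFAD minus 5xFAD on the left and P522R_5xFAD minus 5xFAD on the right (12 mice per genotype); red marks an adjusted p under 0.05. Arc, Egr1 and Nr4a2 are red on the left, and 7 genes are red on the right.

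Other genes that neuronal activity induces were read from a list of 50, of which 10 were measured, the 3 members included. In M28L_5xFAD against 5xFAD mice 3 of the 10 rose, all of them members, and 0 fell, with a median difference of 0.30 against 0.00 over all genes. Of all genes 4.66% were called higher and 10.3% in either direction there. The members and the list were chosen with earlier results of these data known. Egr2, a zinc finger factor related to Egr1, was at 0.64 (adjusted p = 0.074), and Fos, a subunit of the AP-1 factor, at 0.50 (adjusted p = 0.122). Npas4, a neuronal factor induced by calcium entry, was at 0.29 (adjusted p = 0.257), Homer1, a scaffold of the postsynapse, at 0.19, Ptgs2, the inducible cyclooxygenase, at 0.18, the neurotrophin gene Bdnf at 0.12 and Jun, the partner of Fos, at 0.02. None of these 7 passed, and all 7 values were above 0. The count was 9 after centring on Gusb and Tbp, which moved the median of all genes to 0.17, and 5 in a fit of these 2 genotypes alone.

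In P522R_5xFAD against 5xFAD mice 7 of the 10 rose and 0 fell, with a median of 0.42 against 0.08 over all genes. Of all genes 40.5% were called higher and 65.4% in either direction. The share of the list called in either direction was near that of the whole table, though all 7 calls in the list were higher. Beyond the members these were Ptgs2 (0.45, adjusted p = 8.16e-05), Bdnf (0.35, adjusted p = 2.81e-04), Npas4 (0.39, adjusted p = 0.0223) and Fos (0.45, adjusted p = 0.0497), by limma. Egr2 (0.44, adjusted p = 0.0958), Jun (0.06) and Homer1 (-0.20, adjusted p = 0.0869) did not pass. Leaving out 1 mouse gave counts of 5 to 9. Between the variants, P522R_5xFAD against M28L_5xFAD, 3 rose and 1 fell, a smaller share than the 67.6% of all genes called there (41.5% higher). Egr1, Ptgs2 (0.28) and Bdnf (0.23) were higher and Homer1 lower (-0.38, adjusted p = 0.0013).

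Lists of other genes around the members were counted in the same way, for M28L_5xFAD against 5xFAD mice, where 10.3% of all genes were called. Of 52 measured genes that carry activity signals to the nucleus 2 rose, the kinase gene Mapk3 (0.16) and the stress-response factor gene Atf4 (0.21), and 3 fell, among them the AMPA receptor subunit gene Gria3 (-0.17). Of 15 Arc partners at the synapse none passed, and Dlgap1, a postsynaptic scaffold, was nearest at -0.12 (adjusted p = 0.0611). Of 10 genes of the Nr4a2 and dopamine neuron list none passed, with the vesicular monoamine transporter gene Slc18a2 at 0.38 (adjusted p = 0.101). Of 13 Egr1 co-regulators and targets 1 rose, the cell cycle inhibitor gene Cdkn1a (0.49, adjusted p = 0.00182). In P522R_5xFAD against 5xFAD mice, where 65.4% of all genes were called, these lists had 21 higher and 16 lower of 52, 8 and 4 of 15, 7 and 2 of 10, and 7 and 3 of 13.

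Cell type and stress markers moved in part with the members in M28L_5xFAD against 5xFAD mice. Of 12 measured excitatory neuron genes 0 passed, with a median of -0.10, and their summed linear level in males was 72610 to 78211 in M28L_5xFAD and 79453 to 82318 in 5xFAD mice. In females it was 51454 to 59433 in M28L_5xFAD and 50886 to 61741 in 5xFAD mice. Of 11 interneuron genes 2 rose, the calretinin gene Calb2 (0.54, adjusted p = 9.22e-04) and the vesicular GABA transporter gene Slc32a1 (0.17, adjusted p = 0.0444). Of 18 microglial genes 4 fell, with Cx3cr1 (-0.42), Tyrobp (-0.45) and Trem2 (-0.43) among them, and 1 rose. Their summed level was 17716 to 20141 in M28L_5xFAD and 20125 to 27850 in 5xFAD females, and 14211 to 21613 in M28L_5xFAD and 17951 to 23698 in 5xFAD males. Of 8 heat shock and hypoxia genes 4 rose and 1 fell, with a median of 0.29. Those that rose were the small heat shock protein gene Hspb1 (0.75, adjusted p = 4.47e-04 by limma), the inhibitor of NF-kappaB gene Nfkbia (0.47), the glucose transporter gene Slc2a1 (0.40) and Cdkn1a. The last is in the Egr1 target list too and was counted in both. The summed level of the 8 genes was 9067 to 11000 in M28L_5xFAD and 9409 to 11350 in 5xFAD females, and 16347 to 18789 in M28L_5xFAD and 16512 to 18186 in 5xFAD males. Whether each of these markers was expressed above background was not tested, nor was their part in the rise of the members.

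Among the remaining markers in that comparison, 1 of 7 astrocyte genes fell (Gfap, -0.38), as did 1 of 6 endothelial and pericyte genes (Cldn5, -0.55). None of 10 oligodendrocyte, 4 oligodendrocyte precursor, 3 striatal and 3 hippocampal, thalamic or cerebellar genes passed. In P522R_5xFAD against 5xFAD mice the counts higher and lower were 8 and 2 of 12 for excitatory neurons, 3 and 6 of 11 for interneurons, 2 and 8 of 18 for microglia and 4 and 2 of 8 for heat shock and hypoxia genes. They were 4 and 1 of 7 for astrocytes, 6 and 1 of 10 for oligodendrocytes, 4 and 0 of 4 for their precursors, 1 and 2 of 6 for vessels, 1 and 1 of 3 for striatum and 1 and 0 of 3 for the other regions. The part of these shifts in the P522R differences of Arc, Egr1 and Nr4a2 was not tested.

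All 3 genes fell in females relative to males. Arc averaged 8.80 in females and 9.87 in males, a difference of -1.07 ± 0.14 (SE, adjusted p = 1.47e-08 by limma). Egr1 averaged 11.69 in females and 12.41 in males, a difference of -0.71 ± 0.09 (SE, adjusted p = 1.77e-09). Nr4a2 averaged 9.14 in females and 9.89 in males, a difference of -0.74 ± 0.05 (SE, adjusted p = 7.88e-16). For each gene 18 of 18 females lay below the male mean of their genotype. The median of all genes was -0.38 in the same contrast, and 83.7% of genes were called lower, so most of the table moved the same way. By size among negative differences Arc ranked 14, Nr4a2 100 and Egr1 134. Relative to that median the differences were smaller but still called: centring each mouse on its median gave -0.75 for Arc, -0.38 for Egr1 and -0.42 for Nr4a2, with the median of all genes at -0.05. Centring within each panel gave -0.60, -0.45 and -0.27 for the same genes, with the median at -0.02.

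On the deposited scale the sex difference was called in each genotype, where the median of all genes was -0.38 in M28L_5xFAD, -0.31 in P522R_5xFAD and -0.41 in 5xFAD mice. In M28L_5xFAD mice females minus males was -1.22 for Arc, -0.83 for Egr1 and -0.82 for Nr4a2 (adjusted p = 4.71e-05, 7.47e-06 and 2.93e-10 by limma), where 66% of genes were called lower. In P522R_5xFAD mice it was -1.13, -0.61 and -0.55 (adjusted p = 2.09e-04, 6.81e-04 and 2.99e-06), where 68.8% were called lower. In 5xFAD mice it was -0.87, -0.69 and -0.86 (adjusted p = 0.00213, 9.92e-05 and 1.01e-10), where 70.1% were called lower. Centring each mouse on its median gave smaller differences, and the calls of Egr1 in P522R_5xFAD mice (-0.36, adjusted p = 0.129), Egr1 in 5xFAD mice (-0.31, adjusted p = 0.0826) and Arc in 5xFAD mice (-0.49, adjusted p = 0.0997) ended. With panel medians all 3 genes lost their call in P522R_5xFAD mice (-0.71, -0.38 and -0.14), as did Arc in 5xFAD mice (-0.36). Quantile normalization ended the calls of Egr1 in P522R_5xFAD (-0.35) and Arc in 5xFAD mice (-0.48), and Gusb and Tbp those of Egr1 (-0.34) and Nr4a2 (-0.29) in P522R_5xFAD mice. Females and males did not overlap for Egr1 and Nr4a2 in M28L_5xFAD and 5xFAD mice, nor for Arc in M28L_5xFAD mice. The share of all genes without overlap between the sexes was not counted. In P522R_5xFAD mice all 3 genes overlapped between the sexes, as did Arc in 5xFAD mice, and no female lay above all males. Over the 3 genotypes together 9 of the 10 activity-induced genes fell in females and 0 rose, near the 83.7% of all genes called lower, and Homer1 (-0.12, adjusted p = 0.181) did not pass. Sex and run cannot be told apart here.

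**Figure D3:**
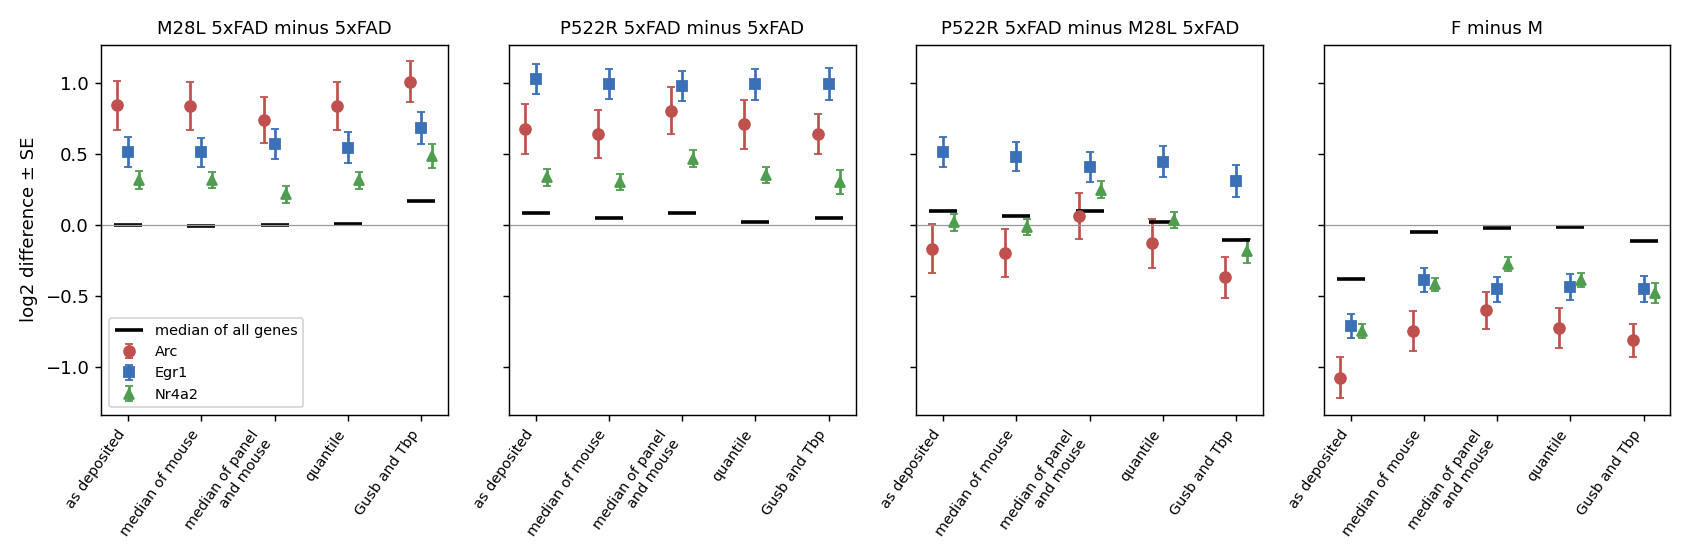
Log2 difference ± SE of Arc, Egr1 and Nr4a2 in 4 comparisons under 5 scalings of the log2 values, with the median of all 1266 genes as a black dash. Differences from 5xFAD lie between 0.22 and 1.03 under all 5 scalings, Arc and Nr4a2 cross 0 between the variants, and the female minus male differences shrink with the median.

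Beyond the group means, the 3 genes varied together between mice. With each group mean removed, Pearson's r over 36 mice was 0.658 for Arc and Egr1 (Spearman's rho 0.590), 0.518 for Arc and Nr4a2 (rho 0.400) and 0.673 for Egr1 and Nr4a2 (rho 0.648). Permuting 1 gene within groups 100000 times gave adjusted p values over the 3 pairs of 3.0e-05, 0.00506 and 1.0e-04 for r, where the first rests on the smallest p the resamples can give, and 0.00121, 0.028 and 5.7e-04 for rho (two-sided permutation tests). Without the 2 mice farthest from the median of the first gene, r was 0.635, 0.446 and 0.508. P522R_5xFAD mice lay at the ends: female 49 was the highest above its group mean for all 3 genes (0.98 for Arc, 0.50 for Egr1 and 0.30 for Nr4a2). Male 21 was the lowest for Egr1 (-0.69) and Nr4a2 (-0.31), and had -0.78 for Arc.

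By their steps the deposited values of Arc and Egr1 come from different panels, as do those of Egr1 and Nr4a2. The values in each of these pairs were thus scaled by separate steps, while those of Arc and Nr4a2 share a step in each mouse. The members' r with the log2 total of their own panel was 0.036 for Arc, 0.001 for Egr1 and -0.086 for Nr4a2. Arc and Nr4a2 were the weaker pair: r was 0.391 (adjusted p = 0.0868) in M28L_5xFAD and 5xFAD mice alone, 0.397 (adjusted p = 0.159) in males alone, and 0.361 (adjusted p = 0.0594) after centring within panels. Inside each group of 6 all 18 correlations were above 0, between 0.185 and 0.878 for Arc and Egr1, 0.141 and 0.761 for Arc and Nr4a2, and 0.353 and 0.874 for Egr1 and Nr4a2. None passed adjustment over the 18 (lowest adjusted p = 0.119, exact permutation over 720 pairings), and 4 had an unadjusted p under 0.05, all in P522R_5xFAD mice. Without the 2 mice farthest from the median of the first gene, 4 of the 18 correlations fell below 0. They were Arc and Egr1 (-0.066) and Arc and Nr4a2 (-0.287) in P522R_5xFAD males, and Egr1 and Nr4a2 in M28L_5xFAD females (-0.171) and in 5xFAD males (-0.402).

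**Figure D4:**
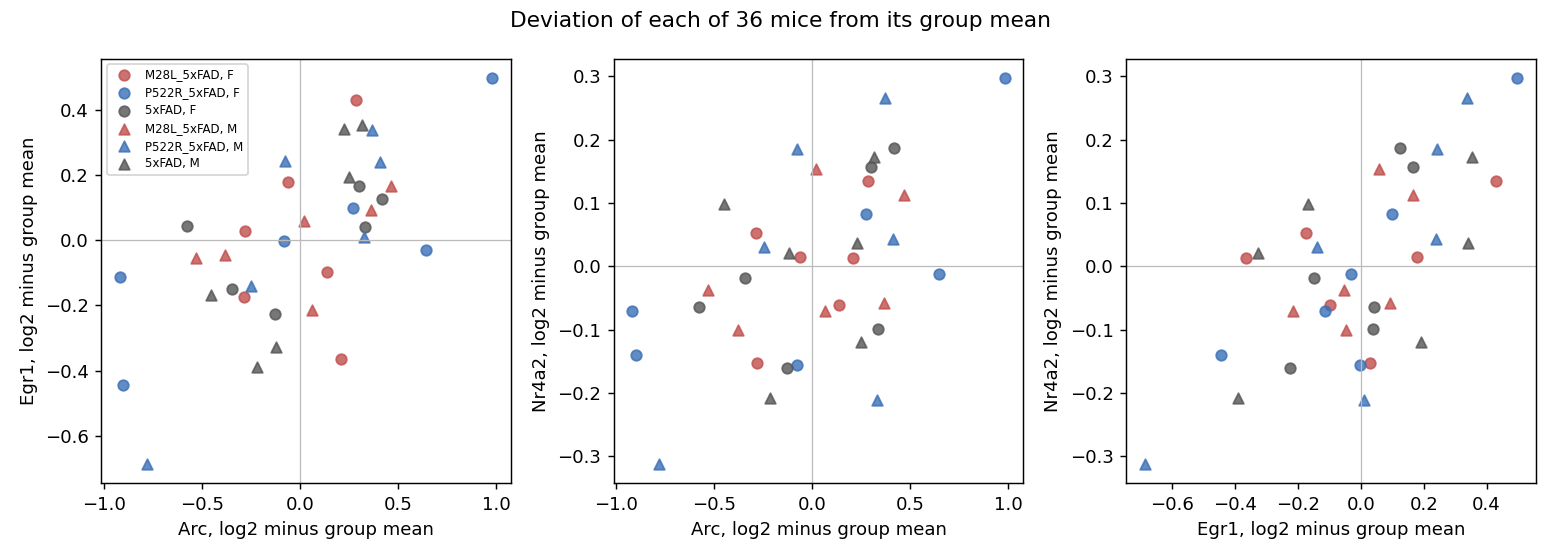
Each of 36 mice by its log2 value minus its group mean, for Arc against Egr1, Arc against Nr4a2 and Egr1 against Nr4a2; colour is genotype, circles are females and triangles males. Points rise from lower left to upper right (r of 0.658, 0.518 and 0.673), with P522R_5xFAD female 49 and male 21 near the ends.

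The genes most like each member across mice, by r over 36 mice among 1090 others with a mean log2 value of at least 5, were largely the other activity-induced genes. For Arc they were Fos (0.878), Egr2 (0.867), Egr1 (0.658), Katna1 (0.625), a subunit of a microtubule-severing enzyme, and Prpf3 (0.595), a splicing factor. For Egr1 they were Fos (0.730), Nr4a2 (0.673), Arc (0.658), Ptgs2 (0.646) and Egr2 (0.586). For Nr4a2 they were Egr1 (0.673), Ptgs2 (0.669), Fos (0.582), Kitl (0.545), the ligand of the Kit receptor, and Jak2 (0.542), a cytokine receptor kinase. The median r with all 1090 genes was 0.017 for Arc, -0.013 for Egr1 and 0.076 for Nr4a2, and the 95th percentile lay at 0.357, 0.338 and 0.341. Mice here share groups, and the genes of a panel share a library, so these values describe likeness and carry no test.

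Fos followed Arc in every group, with r between 0.638 and 0.975, and Egr2 with r between 0.674 and 0.982 over the 6 groups. Ptgs2 was above 0 with each member in all 6 groups, at 0.415 to 0.945 with Arc, 0.489 to 0.872 with Egr1 and 0.112 to 0.944 with Nr4a2. Homer1 and Bdnf followed each other (0.793) more than they followed Egr1 (0.046 and 0.170), while with Nr4a2 they had 0.390 and 0.446. Jun, whose spread within groups was 0.164, had 0.424 with Arc, 0.467 with Egr1 and 0.347 with Nr4a2. Npas4 had 0.671 with Fos and 0.524 with Arc, but 0.237 with Nr4a2, and its r with each member changed sign between groups. The within-group SD of the others was 0.622 for Egr2, 0.544 for Fos and 0.402 for Npas4, which rank 2, 4 and 15 of 1091. Egr2 was dim, on 8 to 78 counts per mouse, so its spread and correlations rest on low counts.

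**Figure D5:**
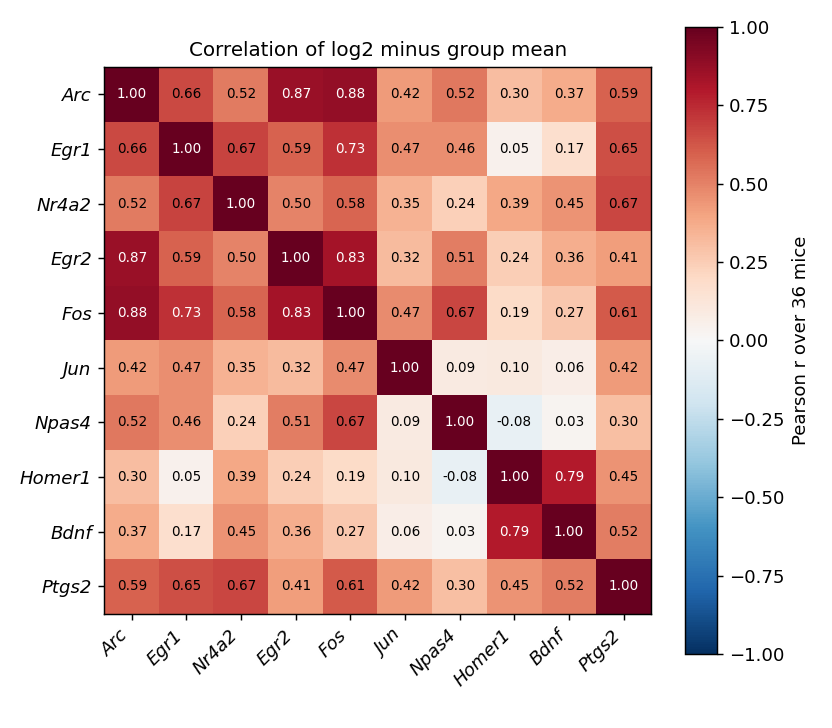
Pearson's r over 36 mice between the 10 measured activity-induced genes, on log2 values minus the group mean; each cell prints its r. Arc, Egr2 and Fos form the highest block (0.830 to 0.878), and Homer1 with Bdnf (0.793) have an r under 0.2 with Egr1 and Npas4.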

How the data were processed

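Cortical RNA, extracted with a PureLink kit per the labels' protocols, was hybridised to the nCounter Glial and Neuropathology panels (72 records, 36 mice). The deposited log2 values join both panels, with a column for each mouse. How the authors normalized them was not given in the sources used here. Of 1517 rows, 251 carry no gene symbol; the tests use the other 1266. Counts recovered from the steps in these values gave the depth only; all tests used the deposited log2 values. A pair of M28L_5xFAD females share the animal number 14 and were kept as separate mice.

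limma 3.58.1 in R 4.3.3 fitted a mean per genotype and sex with eBayes and a trend, over all 36 mice. P-values are two-sided, adjusted by Benjamini-Hochberg over 1266 genes, with a threshold of 0.05; genotype contrasts average the sexes. The fit was tested on simulated data. Correlations used numpy 2.4.6 and scipy 1.17.1, and figures matplotlib 3.10.9. Named were the members, every measured activity-induced gene, up to 3 genes per other list with the smallest p, and the 5 genes most like each member. The members and lists were chosen with earlier results of these data known. Alternatives were other scalings, filters, a pseudocount of 20, variance models, fits without sex or a genotype, M28L mice by index, an index block, the mean of the mice numbered 14, and leaving out each mouse in turn. Promoters are RefSeq GRCm38.p6.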

Additional observations from a re-analysis of the deposited data

Results flagged for a closer look

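No mouse stood apart by Dixon's ratio for Arc, Egr1 or Nr4a2 in the 18 sets of 6 mice tested, where chance would mark about 1 in 20. The largest ratio was 0.534, below the limit of 0.625 for 6 mice, for Egr1 in P522R_5xFAD male 21, which had a log2 value of 12.18. The ratio cannot mark 2 mice that lie close together. For Arc in P522R_5xFAD females it was 0.009 at the low end, where females 60 and 8 lay side by side.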

How the results depend on the processing

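The labels give no run or kit lot, and 6 mice per group limit within-sex calls. Of 795 values recomputed under other settings 717 kept their direction and call, as did 2079 of 2124 with 1 mouse left out. Where a value changed, the cause was not tested. Without a sex term, M28L_5xFAD against 5xFAD lost Arc (0.84), Egr1 (0.51) and Nr4a2 (0.32), its counts fell to 0 activity-induced genes and 30 of all genes, and P522R_5xFAD against 5xFAD lost Nr4a2 (0.34) with 4 activity-induced genes. Centring on Gusb and Tbp gave 9 activity-induced and 306 of all genes for M28L_5xFAD against 5xFAD (90.2% of them higher, against 45.4%), where Gusb itself was at -0.47. It gave -0.37 for Arc and -0.18 for Nr4a2 between the variants (-0.076 for Nr4a2 in females), 27.5% higher calls there against 61.3%, and 601 genes between the sexes. As deposited, Gusb and Tbp were themselves at 0.24 and 0.17 between the variants, and at -0.14 and -0.39 in females against males. Centring on each panel's median gave 0.066 for Arc and 0.25 for Nr4a2 between the variants (0.073 for Arc in females, 0.059 for Arc and 0.15 for Nr4a2 in males) and 627 genes between the sexes. Centring on each mouse's median gave -0.014 for Nr4a2 between the variants, -0.046 for Egr1 and -0.0090 for Arc in the sex differences of P522R_5xFAD against 5xFAD and against M28L_5xFAD. Quantile normalization called 693 genes between the sexes. Among calls between the sexes 3.11% were higher as deposited, and 42.1%, 46.4%, 49.2% and 25.5% with the mouse median, panel median, quantile and Gusb and Tbp scalings. For M28L_5xFAD against 5xFAD, 5 activity-induced genes were called with those 2 genotypes alone and 77 of all genes with M28L_5xFAD mice of index 1 to 3. With those mice, 2 activity-induced genes were called between the variants, the Arc sex differences were 0.15 against 5xFAD and -0.42 between the variants, and Arc between variant males was 0.089; with index 7 to 9, Arc between variant females was 0.086. These settings keep fewer M28L_5xFAD mice. Index 1 to 3 ended the calls in males of Arc (0.72) and Egr1 (0.57) against 5xFAD, of Egr1 between the variants (0.42) and of Arc between the sexes in M28L_5xFAD (-0.71). Index 7 to 9 ended those of Nr4a2 in females (0.31) and Egr1 in males (0.60) against 5xFAD and of Egr1 between variant males (0.39).

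Index numbers in the mouse names gave little sign of pairing mice, though so few pairs cannot exclude it. Deviations of same-numbered mice correlated between -0.485 and -0.0035 in 6 pairs of M28L_5xFAD and 5xFAD. They correlated between -0.465 and 0.07 in 10 pairs of P522R_5xFAD and 5xFAD. In 6 pairs of P522R_5xFAD and M28L_5xFAD the range was -0.22 to 0.29, where 1 pair was over 0.1. With index numbers as a replicate block, 6 activity-induced genes were called for M28L_5xFAD against 5xFAD and 2 between the variants. Nr4a2 between the variants was then -0.065, and the Arc sex difference of P522R_5xFAD against 5xFAD was 0.078. That block ended the calls in males of Arc for M28L_5xFAD against 5xFAD (0.96, adjusted p = 0.213) and of Egr1 between the variants (0.19, adjusted p = 0.384). It called Arc in females for P522R_5xFAD against 5xFAD (0.78) and its Nr4a2 sex difference (0.41); no block could be fitted between the sexes. The correlation of Arc with Nr4a2 did not pass with panel medians (0.361), Gusb and Tbp (0.316), M28L_5xFAD and 5xFAD mice only (0.391) or males only (0.397). With 1 mouse left out, values between the variants ran between -0.012 and 0.049 for Nr4a2 and between -0.32 and 0.061 for Arc in females, and sex differences between -0.056 and 0.17 for Egr1 in P522R_5xFAD against 5xFAD and between -0.11 and 0.27 for Arc between the variants.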
